A study of Mus musculus with 6 samples.

Results

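ERK, the last kinase of the RAS-RAF-MEK cascade, induces genes that in turn restrain it. The 10 genes described here are regulators that restrain the pathway and ETS transcription factors that act downstream of ERK. They were taken from the deposited count table by gene symbol, and all 10 of the 10 were among the 14831 genes listed and passed the filter on low counts. They comprise 3 MAP kinase phosphatases (Dusp4, Dusp5 and Dusp6), 3 Sprouty adaptors (Spry1, Spry2 and Spry4), the Spred adaptors Spred1 and Spred2, and the PEA3-type ETS transcription factors Etv4 and Etv5. Phosphatases of this family remove phosphate from the activation loop of MAP kinases. Sprouty proteins act between receptor tyrosine kinases and RAS or RAF, and Spred proteins bring neurofibromin, a RAS GTPase activator, to the membrane. Etv4 and Etv5 are transcription factors that ERK signaling, for instance downstream of FGF receptors, both induces and phosphorylates. The repressor Capicua (Cic), which ERK phosphorylation inactivates, holds several of these genes down when ERK activity is low.

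The cells were immortalized mouse pancreatic fibroblasts of mixed strain background, which had grown out of the pancreas of mice with floxed Gli alleles. Gli2 and Gli3 encode transcription factors of Hedgehog signaling. The cells labelled WT had received an eGFP adenovirus and a dsRed lentivirus, and those labelled KO (Gli2-/-;Gli3-/-) an eGFP adenovirus and a Cre recombinase adenovirus, after which cells were sorted and screened for recombination. All were grown to confluence in DMEM with calf serum, so growth factors were present in both groups, and no age, time course or stimulation enters the design. Poly-A RNA was sequenced from 3 libraries of each label, each from its own well of a line, so p-values measure the spread between wells and not between independently made lines. The libraries labelled WT held 31728420 to 33905521 counts and those labelled KO held 32781730 to 41035931.

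The RNA counts of the targeted genes ran against the labels. Gli2 counts were 809, 944 and 868 in the WT-labelled libraries and 1932, 2316 and 1926 in the KO-labelled ones (log2 fold change 1.05, SE 0.04). Gli3 counts were 392, 416 and 398 against 1434, 1637 and 1404, a log2 fold change of 1.71 (SE 0.05). Counts over a whole gene cannot show which exons were read, and a transcript that lacks deleted exons is still counted. Whether the labels were exchanged was not tested, and these counts cannot tell the 2 readings apart. No library was moved, and every direction below is that of the KO-labelled libraries against the WT-labelled ones. If the labels were exchanged, each of these directions would be reversed. Among the fibroblast markers, 7 of 8 were in the table, and they summed to 36039 to 38079 CPM (counts divided by the TMM-scaled library total, per 1000000) in the WT-labelled libraries and 32302 to 33664 in the KO-labelled ones. Col1a1 (means of 15982 and 16113 CPM) and Col1a2 (13233 and 11589 CPM) made up most of this sum and were not called. Of the 6 markers tested 5 had an adjusted p under 0.05, against 58.7% of all genes tested in either direction. All 5 were lower in the KO-labelled libraries, among them Col1a2 (log2 fold change -0.19) and Vim (-0.13). Of the same 6 markers 3 were called, against 17.7% of all genes tested. They were Dcn (log2 fold change -1.55), Pdgfra (-0.90) and Pdgfrb (-0.66), all lower in the KO-labelled libraries. Thy1 was barely detected, at 0 to 4 counts in the WT-labelled and 9 to 19 in the KO-labelled libraries. The 2 of 5 epithelial markers in the table summed to 0.345 to 0.418 CPM and 0.939 to 1.01 CPM, the 2 of 4 macrophage markers to 2.11 to 2.29 and 2.37 to 2.90 CPM, and of 3 endothelial markers none was in the table. The part of these shifts in the results on the 10 genes was not tested, and in bulk RNA fewer cells of a type and less RNA per cell cannot be told apart.

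Of the 10 genes, 4 differed between the groups, all by less than 2-fold. Expression was compared with edgeR's quasi-likelihood test, p-values were adjusted by the Benjamini-Hochberg method over the 14289 genes tested, and a gene was called when its adjusted p was under 0.05 and its change at least 1.5-fold. Spry1 was the 1 gene of 10 called, and it was higher in the KO-labelled libraries, where 17.7% of all genes tested were called and 11.6% were called higher. By the adjusted p alone 4 of 10 passed (Dusp4, Dusp6, Spry1 and Spry2), against 58.7% of all genes tested. All 4 were higher in the KO-labelled libraries. Of all genes tested 29.9% both passed and were higher there, which is 4277 of the 8391 genes that passed. The same 4 genes had groups that did not overlap, which 64.2% of all genes tested had. The median absolute log2 fold change was 0.10 over the 10 genes and 0.22 over all genes tested, and the median signed change was 0.05 against 0.002. Shares this near to or below the background are no result about the list as a whole.

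**Figure D1:**
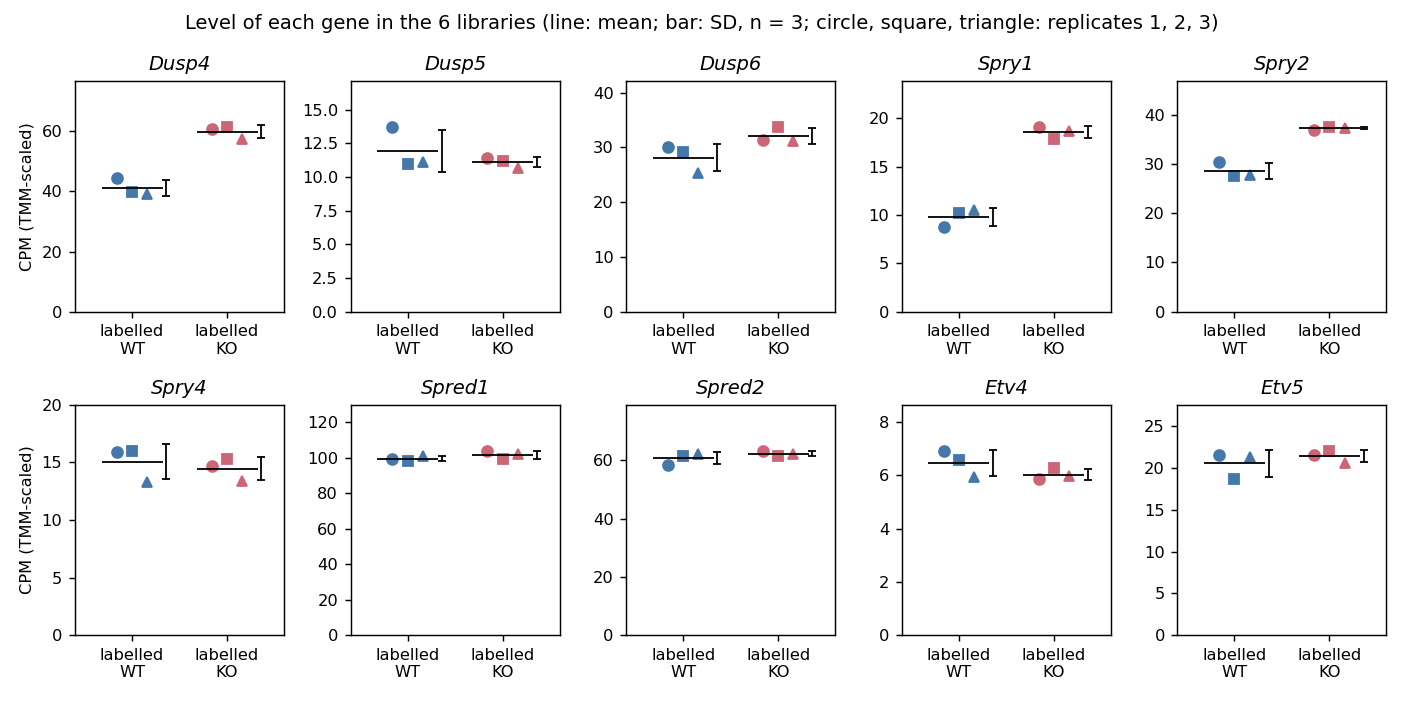
Level of each of the 10 genes, in CPM after TMM scaling on a linear axis from 0, in the 3 libraries labelled WT (blue) and the 3 labelled KO (red). Symbols are replicates 1 to 3 of each group, lines are group means and bars are the SD with n = 3. Dusp4, Dusp6, Spry1 and Spry2 have groups that do not overlap, and the other 6 genes overlap.

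Dusp4 and Dusp6 were the phosphatases whose levels differed. Dusp4 encodes a nuclear phosphatase for ERK, JNK and p38 (ENSMUSG00000031530.6, chr8:34807297-34819894, + strand, GRCm38). It was at 44.4, 39.9 and 39.3 CPM in the WT-labelled libraries and 60.7, 61.4 and 57.4 CPM in the KO-labelled ones. The lowest KO-labelled library lay well above the highest WT-labelled one. The log2 fold change was 0.54 (SE 0.05, 95% interval 0.43 to 0.65, adjusted p = 1.03e-06), a 1.45-fold rise just short of the 1.5-fold limit. With the first WT-labelled library left out it came to 0.59, which is past that limit.

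Dusp6 encodes a cytoplasmic phosphatase selective for ERK (ENSMUSG00000019960.8, chr10:99263231-99267489, + strand). Its level was 30.0, 29.1 and 25.3 CPM in the WT-labelled libraries and 31.4, 33.7 and 31.1 CPM in the KO-labelled ones. The groups did not overlap, but the gap between them was narrow, with 30.0 and 31.1 CPM as its edges. The log2 fold change was 0.19 (SE 0.06, 95% interval 0.06 to 0.32, adjusted p = 0.0173), a 1.14-fold difference. The adjusted p rose above 0.05 without the third WT-labelled library (0.12, adjusted p = 0.0826) and without the second KO-labelled library (0.15, adjusted p = 0.0876).

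Dusp5 encodes a nuclear phosphatase selective for ERK (ENSMUSG00000034765.6, chr19:53529109-53542431, + strand). It was at 13.7, 11.0 and 11.1 CPM in the WT-labelled libraries and 11.4, 11.2 and 10.7 CPM in the KO-labelled ones. The first WT-labelled library stood above the other 5, which lay within the same narrow range. The log2 fold change was -0.10 (SE 0.09, 95% interval -0.29 to 0.08, adjusted p = 0.331), and without that library it was 0.01. Exons of Dusp5 share 547 of 2473 bp with the antisense gene AC137853.2, which held 4 to 19 counts a library and fell in the KO-labelled libraries (log2 fold change -1.12, SE 0.40, adjusted p = 0.0294). The strand setting of the counting is not given in the sources used here, so reads from the shared stretch cannot be assigned to either gene.

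Spry1 carried the largest change of the 10 genes (ENSMUSG00000037211.12, chr3:37639947-37644598, + strand). It was at 8.78, 10.2 and 10.5 CPM in the WT-labelled libraries and 19.1, 17.9 and 18.7 CPM in the KO-labelled ones, from 275 to 340 counts and 618 to 748 counts. All KO-labelled libraries lay far above all WT-labelled libraries. The log2 fold change was 0.92 (SE 0.07, 95% interval 0.77 to 1.07, adjusted p = 1.96e-07), a 1.89-fold rise (95% interval 1.70 to 2.11), and 88.8% of all genes tested had a smaller absolute change. It was called in 14 of 14 alternative fits at the 1.5-fold limit, with log2 fold changes from 0.85 to 0.98. Exons of Spry1 share 710 of 2906 bp with the antisense gene Gm42922, which held only 4 to 19 counts a library (log2 fold change 0.80, SE 0.39, adjusted p = 0.0915).

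Spry2, the Sprouty gene with the highest level per exon length in these cells (ENSMUSG00000022114.5, chr14:105891947-105896819, - strand), was at 30.4, 27.6 and 27.8 CPM in the WT-labelled libraries and 37.0, 37.5 and 37.4 CPM in the KO-labelled ones. The KO-labelled libraries were close to each other and above all those labelled WT. The log2 fold change was 0.38 (SE 0.05, 95% interval 0.28 to 0.48, adjusted p = 1.34e-05), a 1.30-fold rise below the fold limit. Spry4 (ENSMUSG00000024427.7, chr18:38586247-38601415, - strand) did not pass the test. It was at 15.9, 16.0 and 13.3 CPM against 14.7, 15.3 and 13.4 CPM, and the groups overlapped. Its log2 fold change was -0.06 (SE 0.08, 95% interval -0.23 to 0.12, adjusted p = 0.571), an interval that leaves out a rise of the size measured for Spry2.

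Neither Spred gene passed the test, and both held a narrow range over the 6 libraries. Spred1, the gene whose loss causes Legius syndrome in people (ENSMUSG00000027351.14, chr2:117121374-117182279, + strand), averaged 99.6 ± 1.43 CPM (SD, n = 3) in the WT-labelled libraries and 102 ± 2.14 CPM in the KO-labelled ones, with a log2 fold change of 0.03 (95% interval -0.04 to 0.10, adjusted p = 0.439). Spred2 (ENSMUSG00000045671.17, chr11:19924375-20024026, + strand) averaged 60.8 ± 2.04 and 62.4 ± 0.883 CPM, with a log2 fold change of 0.04 (95% interval -0.04 to 0.12, adjusted p = 0.407). For both the groups overlapped, and these were the narrowest intervals of the 10 genes.

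Neither ETS factor passed the test. Etv4 (ENSMUSG00000017724.14, chr11:101769742-101785371, - strand) was at 6.92, 6.57 and 5.95 CPM in the WT-labelled libraries and 5.85, 6.26 and 5.97 CPM in the KO-labelled ones, with overlap. Its log2 fold change was -0.10 (SE 0.09, 95% interval -0.29 to 0.09, adjusted p = 0.335). Etv5 (ENSMUSG00000013089.15, chr16:22381309-22439719, - strand) was at 21.5, 18.7 and 21.3 CPM against 21.5, 22.0 and 20.6 CPM, and only the second WT-labelled library stood below the rest. Its log2 fold change was 0.06 (SE 0.06, 95% interval -0.07 to 0.19, adjusted p = 0.424). Etv1, the other PEA3-type factor and not one of the 10, was the only called gene among the other ETS factors: it fell from 21.1 ± 0.725 to 11.0 ± 0.407 CPM (log2 fold change -0.93, SE 0.06, adjusted p = 2.63e-08), with groups that did not overlap.

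**Figure D2:**
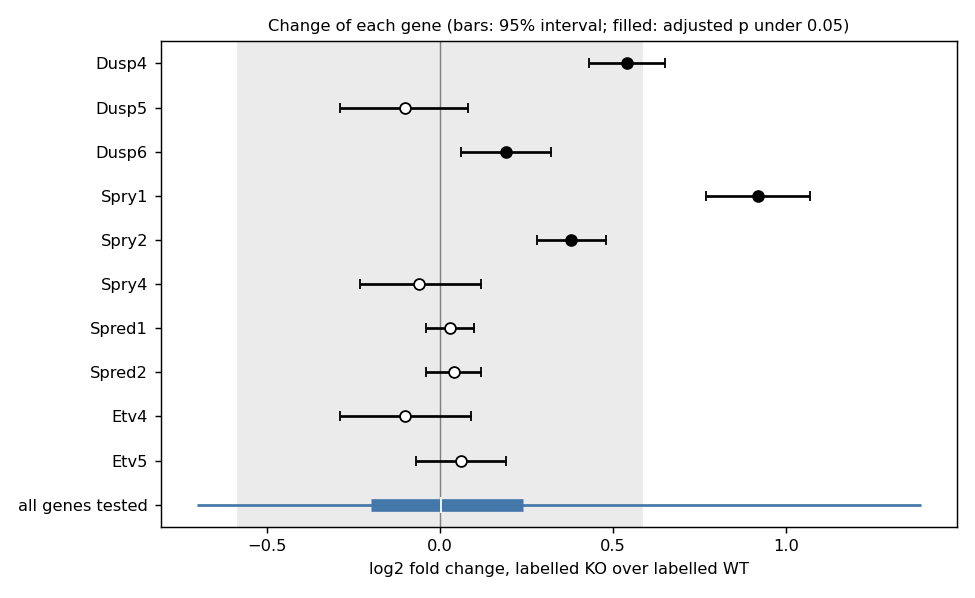
Log2 fold change of each gene in the KO-labelled libraries over those labelled WT, with 95% intervals from edgeR and filled points for an adjusted p under 0.05. The grey band is the range under 1.5-fold, and the blue bar spans the middle 50% (thick, -0.20 to 0.24) and middle 90% (thin, -0.70 to 1.39) of all genes tested. Spry1 lies outside the grey band and Dusp4 inside it at 0.54, near its edge.

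The sequences upstream of Dusp6, Spry1 and Spry2 are shown because these genes passed the test and had an entry in the RefSeq promoter table, so that the letters can be read beside the changes. They are the 250 bases before the annotated start of each gene (GRCm38.p6), at chr10:99262981-99263230 on the + strand for Dusp6, chr3:37639697-37639946 on the + strand for Spry1 and chr14:105896820-105897069 on the - strand for Spry2. Capitals mark a match to a spelling of the octamer bound by Capicua (TGAATGAA, TGAATGGA, TCAATGAA or TCAATGGA, searched on both strands), and the Spry1 stretch holds none.
Dusp6 promoter: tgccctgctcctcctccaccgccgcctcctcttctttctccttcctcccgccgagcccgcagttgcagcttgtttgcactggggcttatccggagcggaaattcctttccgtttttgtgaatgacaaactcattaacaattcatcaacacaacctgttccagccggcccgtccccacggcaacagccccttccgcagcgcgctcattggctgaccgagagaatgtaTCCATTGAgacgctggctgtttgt
Spry1 promoter: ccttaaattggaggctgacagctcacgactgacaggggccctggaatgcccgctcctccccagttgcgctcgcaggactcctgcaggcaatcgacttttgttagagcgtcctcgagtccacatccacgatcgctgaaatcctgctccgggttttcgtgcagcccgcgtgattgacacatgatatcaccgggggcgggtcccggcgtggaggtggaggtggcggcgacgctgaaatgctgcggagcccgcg
Spry2 promoter: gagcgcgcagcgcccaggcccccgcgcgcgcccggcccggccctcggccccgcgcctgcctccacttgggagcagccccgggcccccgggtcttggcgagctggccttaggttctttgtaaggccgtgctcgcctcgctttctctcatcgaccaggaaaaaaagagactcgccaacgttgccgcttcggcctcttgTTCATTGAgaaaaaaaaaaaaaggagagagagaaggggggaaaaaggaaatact

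In Dusp6 the match reads TCAATGGA on the strand opposite to the gene and lies 24 to 17 bases before the start, and a further match to the same letters begins 2 bases into the transcript. In Spry2 the match reads TCAATGAA on the opposite strand, 54 to 47 bases before the start. The table had 8 promoters for 7 of the 10 genes (Dusp5, Dusp6, Etv5, Spred1, Spred2, Spry1 and Spry2). Over windows of 300 bases, which add the first 50 transcribed bases, 2 of these 8 held any of the 4 spellings, as did 3.84% of the 32851 promoters of the table. TGAATGAA was the spelling searched first and occurred in 0 of the 8 and in 1.3% of all promoters. The other 3 spellings were searched after the Dusp6 and Spry2 sequences had been read, so the matches are a description. GACCACCCA, the letters bound by GLI factors, occurred in 0 of the 8 and in 0.253% of all promoters. CCGGAAGT, for ETS factors, occurred in 0 of the 8 and in 3.89%, TGANTCA, for AP-1, in 0 and 7.81%, and TGACGTCA, for CREB, in 0 and 1.79%. All 8 held more CpG dinucleotides in the 250 bases before the start, at 12 to 31, than the median promoter of the table, at 6.

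Levels were compared between genes per kilobase of exon, with exons merged over all annotated transcripts. Dusp5 and Spry1 each share part of this length with an antisense gene, and reads from those stretches cannot be assigned. The effect of both on close places in the order, and on the family shares below, was not tested. In the libraries labelled WT the highest were Dusp4 (15.1 ± 1.02 CPM per kb), Spred1 (14.7 ± 0.210), Spry2 (13.7 ± 0.764) and Spred2 (13.2 ± 0.442), and each of these overlapped its neighbour in the order. Dusp6 followed at 8.98 ± 0.785, then Etv5 at 5.00 ± 0.383 and Dusp5 at 4.82 ± 0.612, which overlapped, then Spry1 at 3.37 ± 0.309 and Spry4 at 3.17 ± 0.316, which overlapped, and last Etv4 at 2.09 ± 0.159. The inhibitors Dusp4, Spry2, Spred1 and Spred2 were thus higher per length than either ETS factor in every library. In the libraries labelled KO no neighbours in the order overlapped. Dusp4 led at 21.8 ± 0.781 CPM per kb, Spry2 was next at 17.9 ± 0.127 and had passed Spred1 at 15.0 ± 0.316. Spry1, at 6.40 ± 0.205, had moved from the eighth place to the sixth, above Etv5 at 5.20 ± 0.168 and Dusp5 at 4.48 ± 0.143. Etv4 stayed last at 1.94 ± 0.0691.

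**Figure D3:**
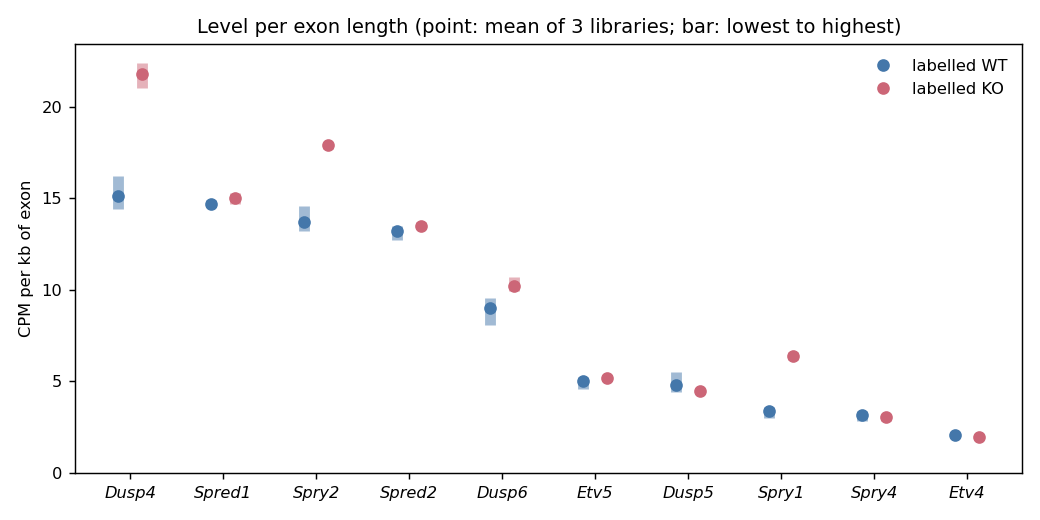
Level per exon length, in CPM per kb on a linear axis from 0, with points for the mean of 3 libraries and bars from the lowest to the highest, in blue for libraries labelled WT and red for those labelled KO. Genes stand in the order of the WT-labelled mean, from Dusp4 at 15.1 to Etv4 at 2.09, and the separation of the red and blue points is widest for Dusp4, Spry2 and Spry1.

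Since members of a family can stand in for each other, the make-up of each family was computed within each library from the levels per length, which no scaling between libraries can alter. Dusp4 made up 51.8, 51.5 and 53.3% of the level of the 3 phosphatases in the WT-labelled libraries and 60.2, 59.5 and 59.5% in the KO-labelled ones. The shares of Dusp5 (16.7% ± 0.971 to 12.3% ± 0.256) and Dusp6 (31.1% ± 1.49 to 28.0% ± 0.656) were correspondingly lower, and all 3 had groups that did not overlap. Shares of a family sum to a whole, so these stand beside the rise of Dusp4: in CPM Dusp6 was higher in the KO-labelled libraries and Dusp5 did not pass the test.

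Within the Sprouty family Spry1 made up 14.4, 17.4 and 18.3% in the WT-labelled libraries and 24.0, 22.6 and 23.7% in the KO-labelled ones. Spry4 made up 16.0, 16.8 and 14.2% against 11.3, 11.8 and 10.3%. These groups did not overlap, and the smaller share of Spry4 stands beside higher levels of Spry1 and Spry2, since Spry4 did not pass the test in CPM. Spry2 remained the main member at 67.7% ± 1.90 and 65.4% ± 0.665, with overlapping groups. Spred1 made up 52.8% ± 0.814 and 52.6% ± 0.196 of the Spred level, and Etv5 70.5% ± 2.39 and 72.8% ± 0.648 of the summed level of Etv4 and Etv5. The shares of Dusp4, Dusp5, Dusp6, Spry1 and Spry4 gave p = 0.1 in a two-sided exact permutation test, the smallest that 3 against 3 libraries allow, and 0.2 after Benjamini-Hochberg adjustment over the 10 shares. Spry2 gave p = 0.2, the Etv genes p = 0.3 and the Spred genes p = 0.9 by the same exact test, so no share could pass 0.05 in this design.

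**Figure D4:**
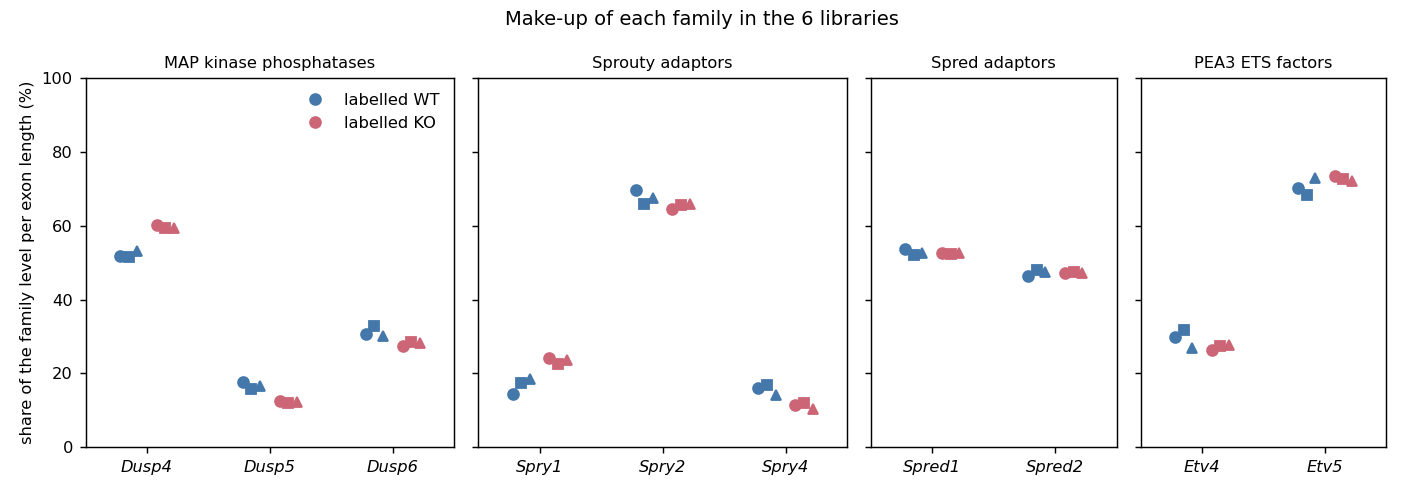
Share of each gene in the summed level per exon length of its family, in percent, in each of the 3 libraries labelled WT (blue) and 3 labelled KO (red). Dusp4 and Spry1 take larger shares in the KO-labelled libraries, and the shares of Dusp5, Dusp6 and Spry4 are smaller there beside that rise, while none of these 3 genes was called lower in CPM. The Spred and Etv panels overlap.

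The wells labelled WT varied more among themselves than those labelled KO for 9 of the 10 genes, Spred1 being the exception. The SD between wells had a median of 7.62% of the mean in the WT-labelled group and 3.21% in the KO-labelled group. Over all genes tested the medians were 4.73% and 4.46%, and 52.8% of genes varied more in the group labelled WT. The first WT-labelled library was the highest of its group for 6 of the 10 genes (Dusp4, Dusp5, Dusp6, Spry2, Etv4 and Etv5), as it was for 38.0% of all genes. The second KO-labelled library was the highest of its group for 6 of the 10 genes and the lowest for 3. Over all genes it was highest for 29.0% and lowest for 28.1%. The third KO-labelled library was the highest of its group for 0 of the 10 genes and the lowest for 5, where it was highest for 36.2% and lowest for 37.9% of all genes. In a list of 14 other genes that ERK induces, the first WT-labelled library was highest for 11, the third KO-labelled library was highest for 4 and lowest for 10, and the SD between wells had medians of 12.5% and 5.3% of the mean in the WT-labelled and KO-labelled groups. The list of 14 held genes with few counts in the WT-labelled libraries, where counting noise adds to the SD. These were Fosl1 (24 to 64 counts), Egr2 (16 to 24) and Egr3 (9 to 17), and the medians over all genes were not matched for level. Both lists were read in the same 6 wells, and the part of these differences between wells in the comparison of the groups was not tested.

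In a list of ERK cascade genes, which also held kinases that ERK activates, Ksr1 and Rps6ka3 were called. Of 23 cascade genes tested, 15 passed by adjusted p (6 higher, 9 lower) and 2 were called, both lower in the KO-labelled libraries, and the median log2 fold change was -0.05. Of all genes tested 58.7% passed and 17.7% were called, so these shares are no result about the cascade. Ksr1 encodes a scaffold that holds RAF, MEK and ERK together (log2 fold change -0.68, SE 0.04, adjusted p = 1.71e-08), and Rps6ka3 the ERK-activated kinase RSK2 (-0.91, SE 0.04, adjusted p = 1.94e-09). Mapk3, which encodes ERK1, had a log2 fold change of -0.07 (adjusted p = 0.0566), and the genes of MEK1 and MEK2, Map2k1 and Map2k2, of 0.05 (adjusted p = 0.285) and -0.05 (adjusted p = 0.180). RNA levels of these kinases say nothing of their phosphorylation.

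Of 20 other negative regulators 17 were in the table, of which 11 passed by adjusted p (6 higher, 5 lower) and 2 were called, with a median log2 fold change of 0.04, where 58.7% and 17.7% of all genes passed and were called. Il17rd, also known as Sef and like the Sprouty genes an FGF-induced inhibitor of ERK signaling, went the opposite way to Spry1 and Spry2. It was at 87.8, 94.7 and 96.4 CPM in the WT-labelled libraries and 41.5, 39.5 and 43.4 CPM in the KO-labelled ones, without overlap (log2 fold change -1.17, SE 0.05, adjusted p = 3.63e-10). Dusp8, a phosphatase acting mainly on JNK and p38, rose from 3.98 ± 0.840 to 7.64 ± 0.425 CPM (log2 fold change 0.94, SE 0.12, adjusted p = 2.71e-05). Dusp7, closest to Dusp6, had a log2 fold change of 0.18 (adjusted p = 0.0143), Dusp1 of 0.04 (adjusted p = 0.563) and Spred3 of -0.01 (adjusted p = 0.900). Spry3 was not in the table.

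A further list held other ETS factors, Cic and genes of the ataxin-1 family. From its 17 tested genes 13 passed by adjusted p (6 higher, 7 lower), with a median log2 fold change of -0.01. Etv1 was the 1 called, where 58.7% and 17.7% of all genes tested passed and were called. Cic itself did not pass, at 197 ± 2.73 and 196 ± 4.74 CPM (log2 fold change -0.01, adjusted p = 0.793). The list of 14 other ERK-induced genes had 12 that passed by adjusted p (10 higher, 2 lower) and 6 that were called (5 higher, 1 lower). Its median log2 fold change was 0.54, against 0.05 for the 10 feedback and ETS genes. Of all genes tested 58.7% passed, 29.9% passed and were higher, 17.7% were called and 11.6% were called higher. The number called among the 14 was 5 with DESeq2 and 8 with upper-quartile factors. Higher in the KO-labelled libraries were Plaur, the urokinase receptor (log2 fold change 1.10, SE 0.08, adjusted p = 8.67e-08), the stress-response gene Ier3 (0.84, SE 0.07, adjusted p = 4.34e-07) and Fos, which encodes an AP-1 subunit (0.76, SE 0.15, adjusted p = 8.84e-04). Epha4, an ephrin receptor, was lower (-0.91, SE 0.04, adjusted p = 1.13e-09). ERK is not the only inducer of these genes, and the difference between the medians was not tested.

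**Figure D5:**
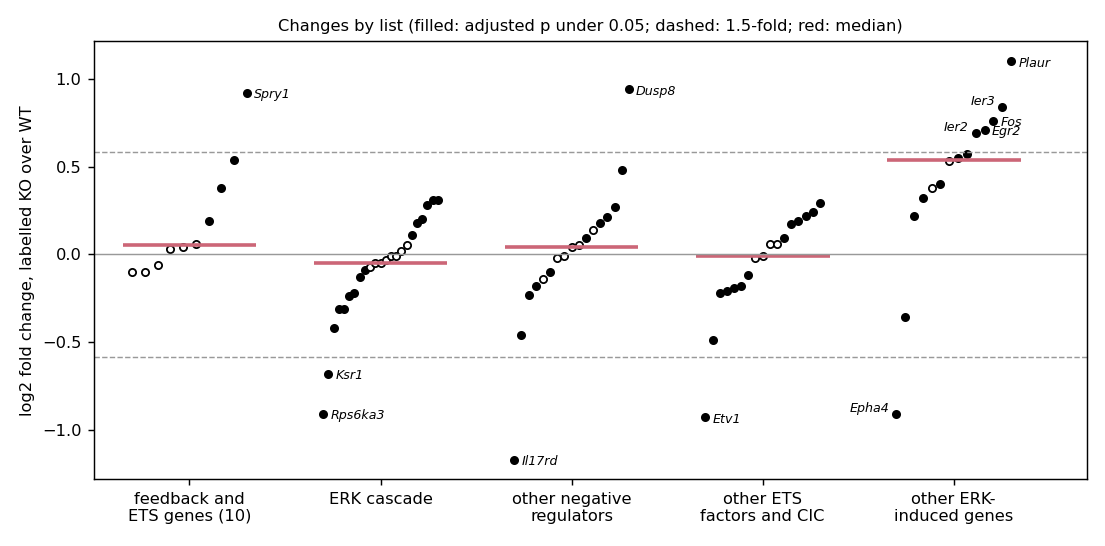
Log2 fold change of every tested gene of the 10 feedback and ETS genes and of 4 further lists, sorted within each list, with filled points for an adjusted p under 0.05, dashed lines at 1.5-fold and a red line at the median. Genes past both limits are named. The median lies near 0 for the first 4 columns and at 0.54 for the other ERK-induced genes.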

How the data were processed

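The 6 libraries were grouped by the genotype label and numbered in accession order. The authors deposited raw counts of reads per gene and log2 expression values for the same 6 libraries; per the labels and the study's methods, poly-A libraries were aligned to GRCm38.p6 with STAR 2.7.2b and counted with featureCounts, and limma is named for normalization. The strand setting and the annotation version are not given in the sources used here. Versioned gene IDs were matched to GENCODE M21 for positions and merged exon lengths. Counts were filtered with filterByExpr, scaled by TMM and tested with edgeR 4.0.16 (quasi-likelihood F test, R 4.3.3) across 14289 genes with Benjamini-Hochberg adjustment, and the common biological coefficient of variation was 3.74%. The deposited log2 values served only in an alternative fit with limma 3.58.1, and DESeq2 1.42.0 was another alternative. Pairs of libraries within a group differed by more than counting noise, so all 6 were kept. Shares within families were compared by exact permutation tests (scipy 1.17.1). The procedure was tested on simulated counts. Beside the 10 genes and the targeted genes, the text names in each of 4 pathway lists up to 3 called genes per direction whose groups did not overlap and whose higher group held 50 counts or more in each library, and a fixed set of close relatives and kinases (Spred3, Il17rd, Dusp1, Dusp7, Etv1, Mapk3, Map2k1, Map2k2 and Cic, with 1 further gene of this set not reported here). Thy1, Fli1 and the fibroblast markers named were chosen after their values were seen. The comparison of wells within a group was not planned in advance. The members and lists were chosen with earlier results of these data known. Promoter sequences came from a RefSeq-based table of GRCm38.p6, and 3 spellings of the Capicua octamer and the CpG counts were added after sequences had been read.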

Additional observations from a re-analysis of the deposited data

How the results depend on the processing

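No paired analysis was possible because the labels give no shared replicate numbers. Without a fold limit 8391 genes passed and at a 2-fold limit 1456 did. On the same limits the 10 feedback and ETS genes gave 4 and 0 (all higher in the libraries labelled KO). The ERK cascade list gave 15 and 0, the other negative regulators 11 and 1, and the other ERK-induced genes 12 and 1. The list of other ETS factors, Cic and the ataxin-1 family gave 13 and 0. With upper-quartile factors 2 of the 10 genes were called, Dusp4 joining Spry1 at a log2 fold change of 0.60. Leaving out single libraries gave 1 to 2 called among the 10, both called ones higher, with Dusp4 added without WT-labelled replicate 1, and 1 to 2 among the ETS factors, with Fli1 added at -0.59 without KO-labelled replicate 1. No called value changed sign. The values that did were close to 0: Dusp5 (-0.16 to 0.01 over single libraries left out), Etv5 (-0.01 to 0.09), Dusp1 (-0.01 to 0.14), Spred3 (-0.03 to 0.01 over single libraries, 0.05 with upper-quartile factors, 0.03 with total counts and 0.00 with at least 10 counts in every library), Cic (-0.03 to 0.00, 0.05 with upper-quartile factors and 0.02 with total counts), and Spry4 and Map2k2 (each 0.00 with upper-quartile factors). The cause was not tested. Dusp1 passed by adjusted p in edgeR without WT-labelled replicate 1 (0.14, adjusted p = 0.0133). Dusp7 had an adjusted p under 0.05 in 10 of 14 alternative fits. Its largest was 0.0813, in edgeR without WT-labelled replicate 2. With upper-quartile factors Spred1 and Spred2 also passed by adjusted p in edgeR (0.0323 and 0.0413). The median log2 fold change over all genes tested was 0.0588 with these factors and 0.0367 with total counts, against 0.00197 in the main fit. Without division by length the difference in share was -0.490 points for Spry2 and -7.59 points for Spry4. Etv4 had 190 to 261 counts a library and an SE of 0.09, and Spred1 had 3116 to 4148 counts and an SE of 0.03.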
